A study of Mus musculus with 61 samples.

Results

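The calcitonin peptide family was followed through the reprogramming of ductal organoids by Ngn3, Pdx1 and MafA as a set of 10 genes, out of 46078 in the count table. They were taken by name: the peptide genes Iapp, Calca, Calcb, Adm and Adm2, the receptor activity-modifying proteins Ramp1, Ramp2 and Ramp3, and the receptors Calcr and Calcrl. Of these genes Iapp reached the highest levels, in samples that carried Ngn3. All 10 genes were among the 24004 genes that were tested.

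The libraries came from adult pancreatic ductal organoids of C57BL/6 mice, which are epithelial duct cells grown as a 3D culture. The organoids were infected with separate lentiviral vectors that encode Ngn3 with GFP, Pdx1 with LSS-orange and MafA with tdTomato, and the transgenes were switched on with doxycycline for 8 days. Cells of the same colours were then sorted into pools of 50 and their RNA was sequenced. In 61 libraries there were 12 conditions: Pdx1, MafA, Pdx1-MafA, Ngn3-Pdx1, Ngn3-MafA and Ngn3-Pdx1-MafA, each from WT cultures, which received wild-type Ngn3, and from 6SA cultures, which received the phospho-mutant form of Ngn3.

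For the conditions without Ngn3, WT and 6SA name the culture that the cells were sorted from, since these cells were negative for the Ngn3 reporter. Every group therefore shared the infection, the doxycycline and the organoid medium, and no uninfected cells or cells with Ngn3 alone were analysed here. Replicates 1 and 2 were from organoids at passage 2 and replicate 3 from organoids at passage 5. After technical repeats were summed, 32 samples remained, 17 with Ngn3 and 15 without. WT Pdx1, 6SA Pdx1, WT MafA and 6SA Ngn3-Pdx1-MafA had 2 samples each and the other conditions had 3.

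The calcitonin family consists of small secreted peptides that are cut from larger precursors and amidated at their last residue. They act on the class B G-protein-coupled receptors Calcr and Calcrl, whose choice of ligand is set by the RAMP that travels with them to the cell surface, and the signal runs mainly through Gs and cyclic AMP. In the islet, amylin is stored with insulin in β-cells and released together with it, and in rodents it is also found in δ-cells.

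Values are given as CPM, the counts on a gene relative to the library size after TMM scaling. The 32 samples held between 2579583 and 19461008 counts on genes, so that 3 counts, taken as the least that can be told from 0, stood for 0.136 to 1.01 CPM. The targeted gene Neurog3, which encodes Ngn3, was at 7.87 to 329 CPM in the 17 samples with Ngn3 and at 0 to 0.788 CPM in the other 15. Pdx1 did not separate its groups in this way, with 9.84 to 191 CPM in samples with the Pdx1 vector and 3.21 to 30.6 CPM in those without. Mafa was at 0 to 12.7 CPM with the MafA vector, with 0 counts in 6SA Pdx1-MafA replicate 3, and at 0 to 0.116 CPM without. The comparisons of Pdx1 and MafA follow the labels. The summed level of 8 duct markers was 1392 to 16498 CPM with Ngn3 and 10240 to 56800 CPM without (4 of 8 called lower), and that of 8 pan-endocrine markers was 481 to 13354 CPM and 1.29 to 8.24 CPM (8 of 8 called higher). Each sample was a pool of cells, so more cells that express a gene and more RNA per cell cannot be told apart.

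Across the 6 pairs of conditions that differ by Ngn3, 4 of the 10 family genes passed the test, as did 21.5% of all genes tested (11.1% higher and 10.5% lower with Ngn3). Iapp, Ramp1 and Ramp2 were higher with Ngn3 and Ramp3 was lower, at an adjusted p under 0.05 in edgeR's quasi-likelihood test. Ramp2 had 0 counts in all 15 samples without Ngn3, so it entered the test only through samples with Ngn3. The median log2 fold change of the 10 genes was 0.87 and that of all genes was 0.07, and the former was set by Adm2 and by Calcr, for which no usable estimate was obtained. With plain totals in place of TMM the median of all genes moved by 0.20 and 68.4% of the called genes were higher, against 51.4%, while Ramp3 still fell by 1.34.

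Iapp encodes amylin, the peptide that slows gastric emptying and limits food intake, and lies on chromosome 6 (chr6:142298423-142303961, plus strand, GRCm38), within an intron of Slco1a5 on the opposite strand and with no exon in common. The 250 bases before its RefSeq start, which lies just inside the gene as annotated here, are shown because Iapp carried the largest change of the family, and because Ngn3 belongs to the factors that bind E-boxes and Pdx1 to those that bind a TAAT core. Capitals mark the E-box letters CANNTG and the letters TAAT, read on both strands, in the RefSeq sequence for GRCm38.p6 at chr6:142298175-142298424.
Iapp: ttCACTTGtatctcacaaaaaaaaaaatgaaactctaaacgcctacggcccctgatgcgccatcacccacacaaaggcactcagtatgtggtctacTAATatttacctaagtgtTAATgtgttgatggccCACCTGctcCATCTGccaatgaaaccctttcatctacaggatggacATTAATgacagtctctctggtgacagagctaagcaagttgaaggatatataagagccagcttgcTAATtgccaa
The window held 3 E-boxes and 5 matches to TAAT, of which 2 overlapped each other, and no match to the Maf-type letters TGCTGA. Of all 32851 windows of this length, 66.2% held an E-box, 54.9% held TAAT and 16.1% held TGCTGA, so that the first 2 kinds of match were common.

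Without Ngn3, Iapp was at or close to the limit of detection in most samples. It was at 1.26 and 0.279 CPM in the 2 WT Pdx1 samples, at 0.214 and 0.617 CPM in WT MafA, and at 4.67, 0.523 and 0 CPM in WT Pdx1-MafA. In the 6SA cultures it was at 46.5 and 0 CPM in Pdx1, at 1.04, 0.324 and 0 CPM in MafA, and at 0.942, 8.67 and 0 CPM in Pdx1-MafA. The sample at 46.5 CPM, 6SA Pdx1 replicate 1, stood well above the other 14, and 815 of its 830 counts (98.2%) came from 1 of its technical repeats. All 3 samples at passage 5 without Ngn3 had 0 counts.

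With Ngn3, Iapp lay higher in most samples that had the Pdx1 vector than in those without it. Iapp was at 933, 392 and 9.51 CPM in WT Ngn3-Pdx1 and at 696, 489 and 1013 CPM in 6SA Ngn3-Pdx1. With all 3 factors the WT samples held 1630, 1111 and 389 CPM and the 6SA samples 1650 and 463 CPM. The Ngn3-MafA samples held 76.6, 0.261 and 0.151 CPM when WT and 19.6, 31.9 and 0.153 CPM when 6SA. The 11 samples with Ngn3 and Pdx1 thus lay between 9.51 and 1650 CPM (median 696) and the 6 samples with Ngn3 and MafA but no Pdx1 vector between 0.151 and 76.6 CPM (median 9.91). These sets overlapped at WT Ngn3-Pdx1 replicate 3 alone, which was also the sample with the least Neurog3 of the 17 (7.87 CPM).

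**Figure D1:**
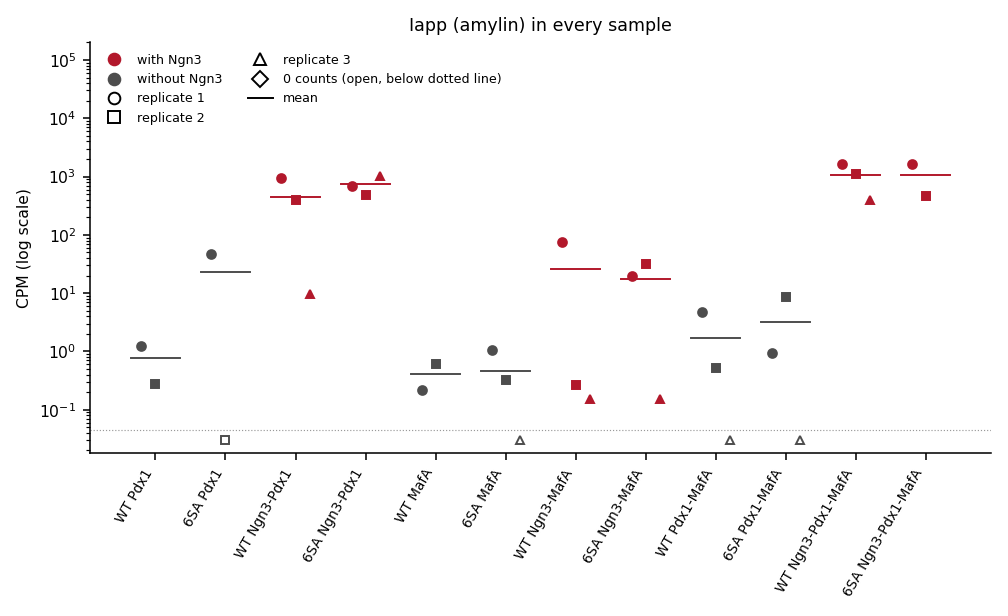
Iapp in each sample, with CPM on a log scale on the vertical axis and the 12 conditions on the horizontal axis; symbols mark replicates 1 to 3, red samples carry Ngn3, bars are means and open symbols under the dotted line stand for 0 counts. Samples with Ngn3 and Pdx1, with or without MafA, sit between 9.51 and 1650 CPM, while those with Ngn3 and MafA but no Pdx1 vector spread from 0.151 to 76.6 CPM.

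Over the 6 pairs Iapp rose with Ngn3 by 7.07 on the log2 scale (SE 1.00, adjusted p = 5.3e-06, edgeR). Its range with Ngn3 lay wholly above that without in 4 of the 6 pairs, the exceptions being MafA in the WT and in the 6SA cultures. Such a separation upwards was found for 6.43% of genes in WT Pdx1, 11.1% in WT Pdx1-MafA, 8.73% in 6SA Pdx1 and 18.7% in 6SA Pdx1-MafA. Without the technical repeat that held most Iapp counts of 6SA Pdx1 replicate 1, the log2 fold change was 7.95 (SE 0.98, adjusted p = 6.5e-07).

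In single pairs Iapp passed the test where Ngn3 joined both Pdx1 and MafA. The log2 fold change was 9.11 in the WT cultures (SE 2.23, adjusted p = 0.015) and 8.40 in the 6SA cultures (SE 2.20, adjusted p = 0.021). It missed the threshold in the WT cultures when Ngn3 joined Pdx1 (8.93, SE 2.75, adjusted p = 0.45) or MafA (6.19, SE 2.71, adjusted p = 0.51). The same held in the 6SA cultures for Pdx1 (4.97, SE 2.20, adjusted p = 0.68) and MafA (4.83, SE 2.00, adjusted p = 0.31). In WT Pdx1 it passed with DESeq2 (adjusted p = 0.0044) and, in edgeR, without all samples of replicate 3 (0.046). The 6SA Pdx1 value was 10.73 with first technical repeats only. This setting dropped the repeat with most Iapp counts of 6SA Pdx1 replicate 1, and also later repeats of other samples. Without 6SA Pdx1 replicate 1, as without all samples of replicate 1, the 1 remaining 6SA Pdx1 sample had 0 counts. No fold change or call is therefore given for these fits. The WT Pdx1-MafA call was lost without WT Pdx1-MafA replicate 2 (adjusted p = 0.092), without WT Pdx1-MafA replicate 3 (0.074) and without all samples of replicate 2 (0.28). The 6SA Pdx1-MafA call was lost without 6SA Ngn3-Pdx1-MafA replicate 1 (0.073), without 6SA Pdx1-MafA replicate 1 (0.086) or 3 (0.093) and without replicate 2 (0.13).

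Calca, which gives calcitonin or the neuropeptide CGRP by splicing, was close to 0 in most samples. It had 9, 15 and 21 counts in the 3 WT Ngn3-Pdx1-MafA samples (0.729, 2.19 and 2.79 CPM) and 0 counts in the 3 WT Pdx1-MafA samples. In the 6SA cultures with all 3 factors the counts were 1 and 0, below all 3 of the WT samples. The other samples with more than 3 counts were WT Ngn3-Pdx1 replicate 1 (19 counts), 6SA MafA replicates 1 and 3 (5 and 11) and 6SA Pdx1-MafA replicate 1 (5). Calca did not pass the test where Ngn3 joined Pdx1 and MafA in the WT cultures (adjusted p = 0.084), but did so with the replicate number as a block (adjusted p = 0.037). A fitted fold change would rest on the 0 counts without Ngn3 and is not given. Its range with Ngn3 lay above that without in this pair, as for 11.1% of all genes, and in no other.

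Calcb, which encodes β-CGRP, had the opposite distribution. It had 70 counts in WT Pdx1-MafA replicate 1 (5.36 CPM), 148 in 6SA Pdx1-MafA replicate 1 (8.71 CPM), 10 in WT Pdx1 replicate 1 and 4 in 6SA Pdx1 replicate 1. These 4 samples were all replicate 1 and carried Pdx1 without Ngn3, and the 148 counts came from 1 technical repeat. Among the samples with Ngn3 it had 4 counts in 6SA Ngn3-Pdx1 replicate 1 and none in the other 16. Over the 6 pairs no usable estimate of the change was obtained for Calca, Calcb or Calcr, since pairs of conditions were at 0 in all samples.

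Adm encodes adrenomedullin, a vasodilator peptide that many cell types make under low oxygen. Its range was 0 to 21.7 CPM with Ngn3 (median 1.22) and 0 to 6.85 CPM without (median 2.16). The 3 highest values were those of WT Ngn3-Pdx1 replicate 3 (21.7 CPM), WT Ngn3-MafA replicate 3 (15.3 CPM) and 6SA Ngn3-MafA replicate 3 (9.78 CPM). In the same 3 conditions, replicates 1 and 2 were at 0.208 and 0, at 3.63 and 1.56, and at 0.0611 and 0.415 CPM. Adm thus varied with passage among the samples with Ngn3, with a median of 9.78 CPM in 5 samples at passage 5 (range 1.2 to 21.7) and of 0.573 CPM in 12 samples at passage 2 (range 0 to 6.28). Its change with Ngn3 over the 6 pairs was not called (log2 fold change 0.54, SE 0.76, adjusted p = 0.83).

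Adm2 encodes intermedin, a relative of adrenomedullin that acts on the same receptors. It was detected in all 32 samples, at 2.28 to 27.4 CPM with Ngn3 (median 8.34) and at 0.697 to 38.8 CPM without (median 4.54). In passage 5 organoids with Ngn3 it was at 16.7 CPM in WT Ngn3-Pdx1, at 14.8 in WT Ngn3-MafA, at 12.2 in WT Ngn3-Pdx1-MafA, at 14.2 in 6SA Ngn3-Pdx1 and at 27.4 in 6SA Ngn3-MafA. The 12 samples with Ngn3 at passage 2 lay below all of these, between 2.28 and 12.1 CPM, and the single highest value of the series was in 6SA MafA at passage 5. The change with Ngn3 was not called (log2 fold change 0.56, SE 0.44, adjusted p = 0.49), and its ranges separated in WT MafA alone, where 8.35% of genes separated upwards. Passage went with the replicate number in this design, so these cannot be told apart.

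Ramp1 encodes the partner that turns Calcrl into the CGRP receptor and Calcr into an amylin receptor. It lies at chr1:91179822-91225196 on the plus strand (GRCm38). Its 250 bases before the start, at chr1:91179572-91179821, are shown beside those of Iapp because both genes rose with Ngn3, with the same letters in capitals.
Ramp1: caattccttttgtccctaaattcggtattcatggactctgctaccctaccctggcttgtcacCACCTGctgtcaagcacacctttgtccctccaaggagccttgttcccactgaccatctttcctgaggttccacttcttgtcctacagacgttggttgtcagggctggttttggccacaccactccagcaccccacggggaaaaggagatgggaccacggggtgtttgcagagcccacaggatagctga
This window held 1 E-box and no match to TAAT or to TGCTGA, in contrast to the count of matches before Iapp. A match or its absence describes these letters in this window and says nothing of which factor binds there.

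Ramp1 was found in every sample and was the family gene that followed Ngn3 most regularly. Without Ngn3 it was at 17.7 and 9.78 CPM in WT Pdx1, at 17.8 and 13.6 CPM in WT MafA and at 15.0, 10.6 and 21.2 CPM in WT Pdx1-MafA. In 6SA cultures without Ngn3 it was at 9.58 and 17.4 CPM in Pdx1, at 7.95, 23.0 and 8.96 CPM in MafA and at 8.24, 7.66 and 19.0 CPM in Pdx1-MafA. All 15 of these samples thus lay between 7.66 and 23.0 CPM, with no condition set apart.

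With Ngn3 and Pdx1, Ramp1 was at 52.6, 94.1 and 37.1 CPM in WT and at 90.3, 116 and 95.8 CPM in 6SA samples. With Ngn3 and MafA it was at 24.6, 19.8 and 48.6 CPM and at 33.7, 79.3 and 76.1 CPM, respectively. With the 3 factors its WT samples held 286, 281 and 134 CPM and its 6SA samples 330 and 55.7 CPM. Within each of the 6 pairs every sample with Ngn3 lay above every sample without, whereas a separation upwards was found for 6.43% of all genes in WT Pdx1, 8.35% in WT MafA, 11.1% in WT Pdx1-MafA, 8.73% in 6SA Pdx1, 6.4% in 6SA MafA and 18.7% in 6SA Pdx1-MafA. Taken over all samples the ranges met, since WT Ngn3-MafA replicate 2 (19.8 CPM) lay under 6SA MafA replicate 2 (23.0 CPM).

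**Figure D2:**
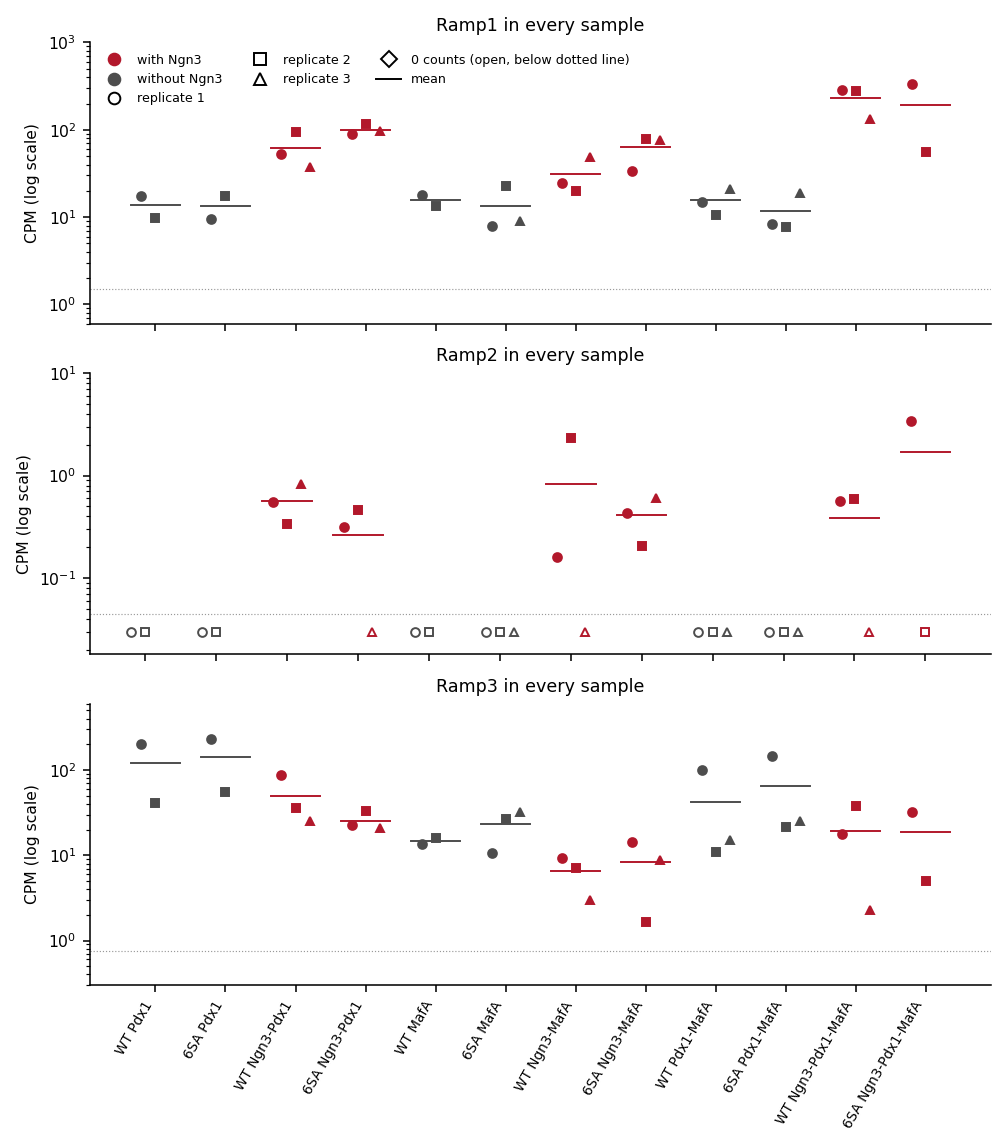
Ramp1, Ramp2 and Ramp3 in each sample, with CPM on a log scale against the 12 conditions; symbols, colours and bars are as in the plot of Iapp by sample. Ramp1 lies higher with Ngn3 in each of the 6 pairs, Ramp2 has 0 counts in all 15 samples without Ngn3, and the highest Ramp3 samples are replicate 1 of conditions with Pdx1 and no Ngn3.

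Over the 6 pairs Ramp1 rose by 2.70 on the log2 scale (SE 0.27, adjusted p = 1.8e-08, edgeR). In single pairs it rose when Ngn3 joined Pdx1 and MafA, by 3.90 in the WT cultures (SE 0.62, adjusted p = 0.0003) and by 4.06 in the 6SA cultures (SE 0.65, adjusted p = 0.00035). It also rose when Ngn3 joined MafA in the 6SA cultures (log2 fold change 2.24, SE 0.58, adjusted p = 0.042). The remaining pairs missed the threshold, with log2 fold changes of 2.14 in WT Pdx1 (adjusted p = 0.47), 0.98 in WT MafA (adjusted p = 0.76) and 2.90 in 6SA Pdx1 (adjusted p = 0.064). The 6SA MafA call was near the threshold and was lost without either 6SA MafA replicate 1 (adjusted p = 0.20) or 3 (0.20), 6SA Ngn3-MafA replicate 2 (0.17) or 3 (0.095), 6SA Ngn3-Pdx1 replicate 2 (0.05), WT MafA replicate 1 (0.05) or 2 (0.051), WT Ngn3-Pdx1-MafA replicate 1 (0.05), replicate 2 (0.17) or replicate 3 (0.26).

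Set against all genes tested, the number of family genes called per pair was 0 for WT Pdx1 (0.108% of all genes), 0 for WT MafA (0.662%), 2 for WT Pdx1-MafA (4.86%), 0 for 6SA Pdx1 (0.367%), 1 for 6SA MafA (1.57%) and 2 for 6SA Pdx1-MafA (5.79%). The called genes were Iapp and Ramp1 in both Pdx1-MafA pairs and Ramp1 in 6SA MafA. They were all higher with Ngn3, as were 2.48% of genes in WT Pdx1-MafA, 1.17% in 6SA MafA and 3.29% in 6SA Pdx1-MafA. Where edgeR called none, the family genes at an unadjusted p under 0.05 numbered 2 in WT Pdx1, 1 in WT MafA and 3 in 6SA Pdx1. Of all 24004 genes, 1201, 1980 and 1665 were at such a p in these pairs. DESeq2 called 2, 0 and 1 family genes there. Over all genes it called 198 higher and 20 lower, 322 and 348, and 389 and 15, respectively. In WT Pdx1-MafA, where the samples of a number deviated together, the replicate block called 4 family genes, namely Iapp, Ramp1, Calca and Calcrl, and moved the count over all genes from 1167 to 2392. In 6SA MafA it moved the latter from 377 to 923 and left Ramp1 the sole family gene called.

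**Figure D3:**
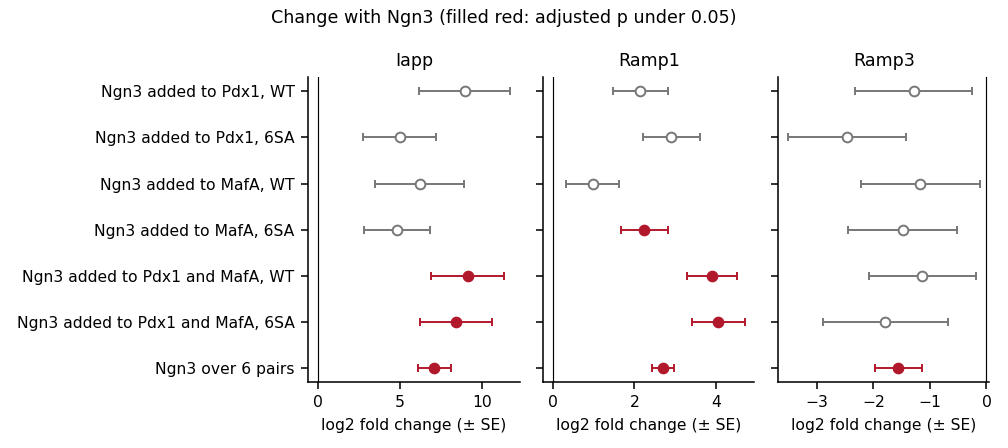
The log2 fold change with Ngn3 for Iapp, Ramp1 and Ramp3 in each of the 6 pairs and over them, with bars of 1 SE; filled red points have an adjusted p under 0.05 in edgeR. Iapp lies at 7.07 and Ramp1 at 2.70 over the 6 pairs, and Ramp3 lies below 0 at -1.56.

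Ramp2, which makes Calcrl a receptor for adrenomedullin, was scarce throughout. Its counts were 8, 1 and 5 in WT Ngn3-Pdx1, 2, 18 and 0 in WT Ngn3-MafA and 7, 4 and 0 in WT Ngn3-Pdx1-MafA. In the 6SA cultures they were 7, 4 and 0 in Ngn3-Pdx1, 7, 2 and 4 in Ngn3-MafA and 50 and 0 in Ngn3-Pdx1-MafA. Ramp2 thus had a count in 13 of the 17 samples with Ngn3, 119 in all, and 0 counts in each of the 15 samples without. Its ranges separated in WT Pdx1 and in 6SA MafA, as did those of 6.43% and 6.4% of all genes in the same direction.

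Pooled over the samples with Ngn3, Ramp2 was at 0.689 CPM, while 3 counts over the whole group without Ngn3 would amount to 0.0215 CPM. Ramp2 passed the gene filter only through samples with Ngn3, so its call over the 6 pairs (adjusted p = 0.00068, edgeR) adds nothing to these counts. The call was lost without 6SA Ngn3-Pdx1-MafA replicate 1, which held the 50 counts, and without all samples of replicate 1. A fitted fold change would rest on the zeros and is not given. Of its exonic bases, 33.4% are shared with Vps25 on the same strand, so its counts are uncertain. Ramp2 and Calcrl are abundant in endothelium, and of 8 endothelial markers 6 were tested and 0 were called (their summed level was 0.782 to 43.7 CPM with Ngn3 and 0 to 7.5 CPM without, with Cldn5 at 0 in all samples and Cdh5 at most 0.391 CPM). Among the others Kdr reached 26.3 CPM with Ngn3 and was at 0 in all samples without, Esam reached 31.9 and 6.94 CPM and Pecam1 3.24 and 0.28 CPM. The part of such cells in these values was not tested.

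Ramp3 encodes the partner that makes an adrenomedullin receptor of Calcrl and an amylin receptor of Calcr. It lies at chr11:6658521-6677475 on the plus strand (GRCm38), and 7.32% of its exonic bases overlap the pseudogene Gm11978 on the other strand. The 250 bases before its RefSeq start, which lies just inside the gene as annotated above, are at chr11:6658283-6658532 and are shown because it was the family gene that fell with Ngn3.
Ramp3: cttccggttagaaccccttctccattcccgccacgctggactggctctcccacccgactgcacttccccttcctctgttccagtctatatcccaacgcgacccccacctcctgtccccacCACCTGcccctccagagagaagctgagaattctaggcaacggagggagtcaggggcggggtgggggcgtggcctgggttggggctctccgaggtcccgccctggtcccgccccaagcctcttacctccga
Like the window before Ramp1 it held 1 E-box and no match to TAAT or TGCTGA, although these genes moved in opposite directions.

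Per length, Ramp3 was the most abundant family gene in cells without Ngn3. It was at 202 and 41.1 CPM in WT Pdx1, at 13.4 and 16 CPM in WT MafA and at 100, 10.8 and 14.9 CPM in WT Pdx1-MafA. In 6SA cultures it was at 229 and 55.0 CPM in Pdx1, at 10.5, 26.9 and 32.4 CPM in MafA and at 146, 21.4 and 25.6 CPM in Pdx1-MafA. The 4 samples of 100 CPM or more were all replicate 1 with Pdx1, and the 6 samples of replicates 2 and 3 in those conditions lay between 10.8 and 55.0 CPM.

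With Ngn3 it was at 87.8, 35.7 and 25.1 CPM in WT Ngn3-Pdx1, at 9.20, 7.17 and 3.03 CPM in WT Ngn3-MafA and at 17.7, 37.5 and 2.26 CPM in WT Ngn3-Pdx1-MafA. In the 6SA cultures it was at 22.5, 33.4 and 20.7 CPM in Ngn3-Pdx1, at 14.2, 1.66 and 8.86 CPM in Ngn3-MafA and at 32.3 and 5.04 CPM in Ngn3-Pdx1-MafA. The samples with Ngn3 were all below those without in WT MafA and in 6SA Pdx1, as were 10.7% and 9.54% of all genes, and overlapped in the other 4 pairs. Over the 6 pairs Ramp3 fell by 1.56 on the log2 scale (SE 0.42, adjusted p = 0.0071, edgeR), and without all samples of replicate 1 by 1.16. It was not called in any single pair.

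Calcr, the calcitonin receptor, was hardly detected, with 17 counts in 5 samples with Ngn3 and 10 counts in 3 samples without. The highest value was 0.963 CPM in WT Pdx1-MafA replicate 3 (8 counts). Calcrl, the receptor for CGRP and adrenomedullin, had 161 counts in 10 samples with Ngn3 and 47 counts in 6 samples without. Either receptor was thus near the limit of detection in these cells, in contrast to Ramp1 and Ramp3.

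Calcrl was at 0.891, 1.17 and 1.6 CPM in WT Ngn3-Pdx1-MafA and at 0 CPM in all 3 WT Pdx1-MafA samples, the only pair in which its ranges separated (upwards, as in 11.1% of all genes). Without Ngn3 it reached 1.4 CPM in 6SA Pdx1 and 1.46 CPM in 6SA MafA, above most samples with Ngn3. In replicate 1 it was at 2.29 CPM in WT Ngn3-Pdx1 and at 2.42 CPM in WT Ngn3-MafA, with 0 counts in replicates 2 and 3 of both. With Ngn3 in the 6SA cultures it was at 1.54, 0 and 0 CPM in Ngn3-Pdx1, at 0.55, 1.87 and 0.153 CPM in Ngn3-MafA and at 0.339 and 0 CPM in Ngn3-Pdx1-MafA. Over the 6 pairs it missed the threshold (log2 fold change 2.56, SE 0.94, adjusted p = 0.054), and without all samples of replicate 1 the value fell to 0.43. In WT Pdx1-MafA it passed with the replicate block (adjusted p = 0.037), where a fitted fold change would rest on the zeros and is not given.

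Per kilobase of exon, which allows levels to be compared between genes, the order differed with and without Ngn3. With Ngn3 the mean level was 538 CPM per kb for Iapp, 36.1 for Ramp1, 15.5 for Ramp3, 7.26 for Adm2 and 2.55 for Adm. The other 5 genes were at 0.255 or less. Without Ngn3 the mean was 45.7 CPM per kb for Ramp3, followed by 5.58 for Adm2, 4.58 for Ramp1, 4.45 for Iapp and 1.42 for Adm. Adm2, Ramp1 and Iapp without Ngn3 were neighbours whose ranges over samples overlapped, and the mean of Iapp there rested mostly on 6SA Pdx1 replicate 1.

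**Figure D4:**
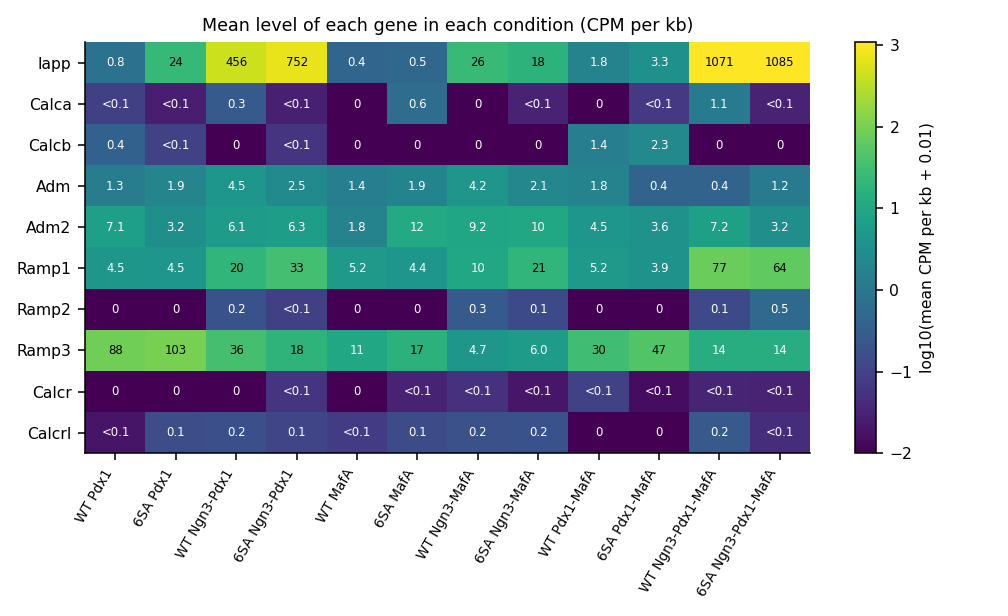
Mean level of the 10 family genes in the 12 conditions, as CPM per kb of exon with the colour on a scale of log10(value + 0.01). Brighter cells are higher. Iapp is brightest in the conditions with Ngn3 and Pdx1, Ramp1 in the conditions with all 3 factors and Ramp3 in Pdx1 alone, while Calcr and Ramp2 stay dark throughout.

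To ask what Pdx1 and MafA add to Ngn3, the cells with all 3 factors were compared with the cells that lacked 1 of them, over the WT and 6SA cultures. When Pdx1 was added to Ngn3-MafA, Iapp rose by 5.63 on the log2 scale (SE 1.36, adjusted p = 0.024) and Ramp1 by 2.27 (SE 0.42, adjusted p = 0.004). These were 2 of the 10 family genes, against 2.72% of all genes called (1.17% higher). Ramp3 was not called (log2 fold change 1.36, SE 0.71, adjusted p = 0.30). The number of all genes called moved from 654 to 2038 with the replicate block, under which the same 2 family genes were called.

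When MafA was added to Ngn3-Pdx1, 0 of the 10 family genes were called, against 1.88% of all genes. At an unadjusted p under 0.05 was 1 family gene, against 3668 of all 24004 genes. DESeq2 called 1 family gene, against 369 genes higher and 975 lower over all genes. Iapp changed by 0.88 on the log2 scale (SE 1.16, adjusted p = 0.82) and Ramp1 by 1.44 (SE 0.41, adjusted p = 0.067). The Pdx1 call for Iapp was lost without each of 7 samples, namely 6SA Ngn3-MafA replicates 1, 2 and 3, WT Ngn3-MafA replicates 2 and 3, 6SA Ngn3-Pdx1-MafA replicate 1 and WT Ngn3-Pdx1-MafA replicate 1 (adjusted p from 0.051 to 0.085), and without replicate 2 (0.32). That for Ramp1 was lost without 6SA Ngn3-Pdx1-MafA replicate 1 (log2 fold change 1.37, adjusted p = 0.11), without replicate 1 (1.08, adjusted p = 0.18) and without replicate 2 (2.56, adjusted p = 0.087).

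Whether the size of the Ngn3 effect depended on its partner was asked of all genes in the same model. Of the 10 family genes 0 were called, against 0.0333% of all genes. At an unadjusted p under 0.05 was 1 family gene, Ramp1 (adjusted p = 0.28, edgeR), against 1833 of all genes. DESeq2 called 1 family gene, again Ramp1. The unadjusted p of Iapp in this edgeR test was 0.33. A difference among the 12 conditions of any kind was called for Iapp (adjusted p = 0.00034), Ramp1 (2.2e-06) and Ramp3 (0.042, lost in 19 of 35 fits that left out a sample or a replicate number), against 7.2% of all genes.

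The phospho-mutant and the wild-type form of Ngn3 were compared to ask whether the form changed the response of the family. Over the 3 combinations, Iapp differed by 0.05 on the log2 scale (SE 0.94) and Ramp1 by 0.49 (SE 0.33), 6SA minus WT. With the replicate number as a block these values were 0.73 (SE 0.73) and 0.51 (SE 0.32), and neither was called. No family gene was called by edgeR, 0 of the 10 had an unadjusted p under 0.05, and DESeq2 called none either. Over all genes edgeR called 0, with 1421 at an unadjusted p under 0.05, and DESeq2 called 26. The effect of Ngn3 itself, taken as the difference between its change in 6SA and in WT cultures, was -2.01 for Iapp (SE 1.64) and 0.73 for Ramp1 (SE 0.49). Neither gene passed this test, and no gene was called by edgeR (647 had an unadjusted p under 0.05, and DESeq2 called 5).

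Amylin must be cut from its precursor and amidated, and the other genes of the pathway were followed in 5 lists of 60 genes, of which 56 were tested. Over the 6 pairs 19 of them rose with Ngn3 and 7 fell, where 11.1% of all genes rose and 10.5% fell. Of the 11 genes of prohormone processing and amidation 6 rose and 1 fell, with a median log2 fold change of 0.90 against 0.07 over all genes. Pcsk2 (prohormone convertase 2) rose from a mean of 0.468 to 470 CPM (log2 fold change 10.04, SE 0.68) and Pcsk1 (prohormone convertase 1/3) from 0.591 to 230 CPM (8.85, SE 0.56). Cpe, the carboxypeptidase that trims the cut ends, rose from 66.7 to 2007 CPM (4.68, SE 0.37). The convertase partners Pcsk1n and Scg5 rose by 10.55 (SE 0.85) and 6.52 (SE 0.59). Pam, the enzyme that amidates amylin and the other family peptides, was already present without Ngn3 and rose from 90.8 to 150 CPM (log2 fold change 0.69, SE 0.19, adjusted p = 0.0093). Pcsk6, a convertase of the constitutive pathway, fell by 1.76 (SE 0.38).

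Of 6 genes that clear the peptides 1 was higher and 3 were lower, with a median log2 fold change of -1.23. Dpp4, a protease that trims peptide hormones, fell by 2.47 on the log2 scale (SE 0.61, from 21.3 to 6.19 CPM). Ackr3, a decoy receptor that takes up adrenomedullin, fell by 2.80 (SE 0.75, from 13.8 to 2.59 CPM). Ide, the insulin-degrading enzyme that also degrades amylin, fell by 0.58 (SE 0.19, from 106 to 74.4 CPM), and Ece1 was the 1 gene of the list that rose.

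Among 6 genes of receptor regulation, Grk2 and Grk5, kinases that desensitise G-protein-coupled receptors, rose, and Arrb1 (β-arrestin 1) fell by 2.46 (SE 0.57). In the Gs and cyclic AMP list 7 of 24 genes rose and 1 fell, with a median log2 fold change of 0.05. Rapgef4 (Epac2), the cyclic AMP sensor of insulin granules, rose from 0.148 to 79.2 CPM (log2 fold change 8.86, SE 0.68), and the phosphodiesterase Pde4b fell by 1.02 (SE 0.24). Of 13 other class B peptide hormone receptors 9 were tested, of which Gipr, Adcyap1r1 and Vipr2 rose and Pth1r fell. Without all samples of replicate 2, the genes called higher and lower were 5 and 0 for processing, 0 and 1 for clearance, 0 and 1 for receptor regulation, 1 and 0 for the cyclic AMP list and 1 and 0 for the receptors. Without replicate 1 the cyclic AMP list had 5 and 0 and the receptors 1 and 0. Over all genes the number called fell from 5168 to as few as 2085 over the fits that left out samples. Fewer calls were thus not confined to these lists.

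**Figure D5:**
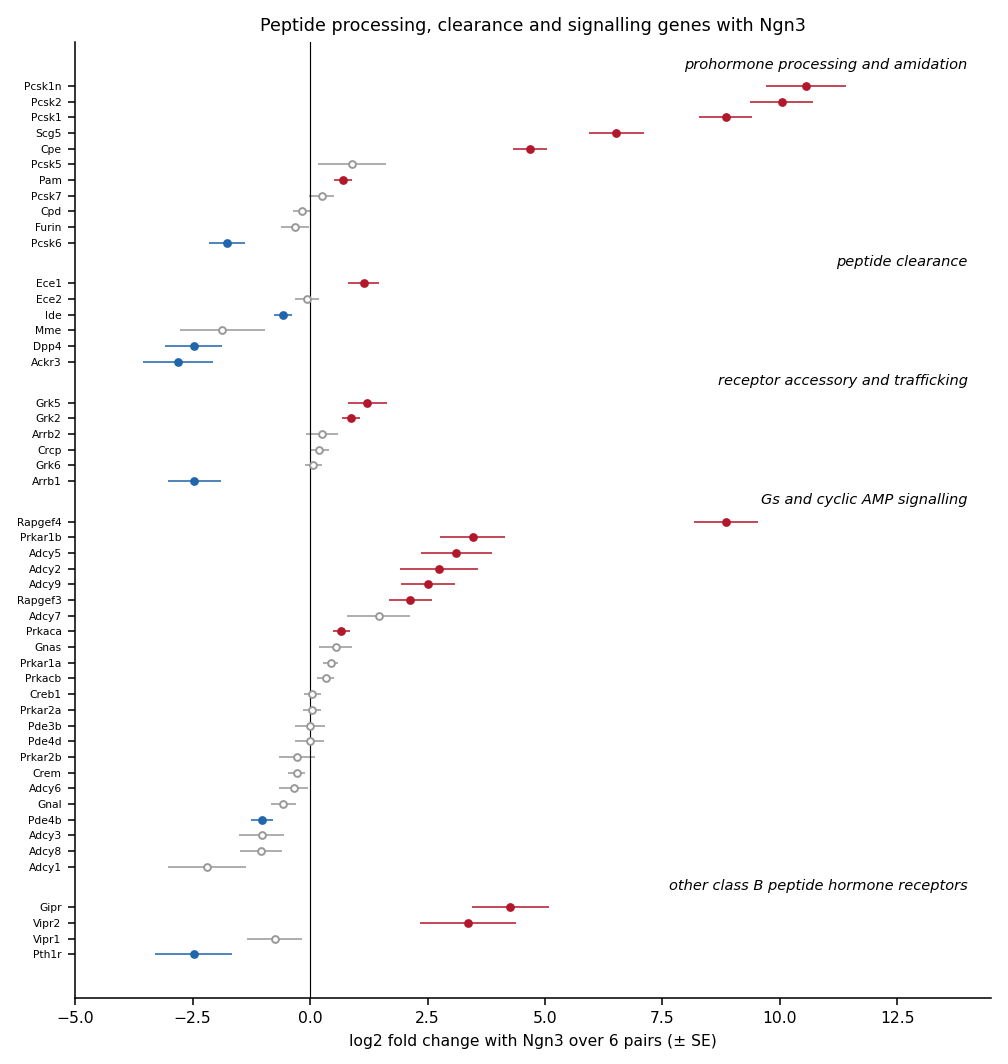
The log2 fold change with Ngn3 over the 6 pairs for 50 of the 56 pathway genes tested, grouped by list, with bars of 1 SE; red genes were higher and blue genes lower at an adjusted p under 0.05, and open grey genes were not called. Genes at 0 in a whole group or with no usable estimate are not drawn, and 25 of the 50 genes drawn were called.

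Since Ngn3 also turned on hormones other than amylin, their levels were set beside Iapp. Sst, the hormone of δ-cells, was at 4.54 to 30704 CPM with Ngn3 and 0.791 to 31.6 CPM without. Ins1 was detected in 7 of the 17 samples with Ngn3, with a maximum of 153 CPM, and Ins2 in 4, and neither in a sample without. Within the 17 samples with Ngn3 the correlation of Iapp with Sst was 0.95 and with Pdx1 0.83, on log2(CPM + 1), whereas that with Ins1 was 0.52, with Neurog3 0.31, with Mafa 0.01, with Ghrl (ghrelin) -0.37 and with Gcg (glucagon) -0.45. The samples share libraries, depth and vectors, and these values are a description.

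The samples with little Iapp among those with Ngn3 were also those with little Sst. Iapp and Sst were at 9.51 and 19.0 CPM in WT Ngn3-Pdx1 replicate 3, at 0.261 and 6.13 CPM in WT Ngn3-MafA replicate 2, at 0.151 and 4.54 CPM in WT Ngn3-MafA replicate 3 and at 0.153 and 6.42 CPM in 6SA Ngn3-MafA replicate 3. All 4 samples carried the Ngn3 transcript, at 7.87, 212, 32.7 and 24.9 CPM of Neurog3. Gcg was at 359 CPM in WT Ngn3-MafA replicate 3 and at 443 CPM in 6SA Ngn3-MafA replicate 2, where Iapp was at 0.151 and 31.9 CPM. Ppy stayed at or below 11.2 CPM.

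Over all 32 samples, the genes with the pattern most like that of Iapp were Th (tyrosine hydroxylase, of catecholamine synthesis), with a Pearson correlation of 0.948, Sst (0.938), the cyclic nucleotide phosphodiesterase Pde3a (0.928), Fam151a (0.924) and Dnah9 (0.918). Within the samples with Ngn3 their correlations with Iapp were 0.949, 0.953, 0.930, 0.905 and 0.895. The choice of the 5 genes depended on the measure, since 3 of them were among the nearest 5 with a pseudocount of 0.1, 4 with a pseudocount of 10 and 2 by Spearman's rank correlation. For Ramp1 the nearest genes were Rspo4 (0.898), an enhancer of Wnt signalling, Gm14207 (0.897) and Gprin1 (0.896), and within the samples with Ngn3 these values were 0.69, 0.76 and 0.76. Ramp3 lay nearest to Cd74 (0.827), the invariant chain of MHC class II, Aldoc (0.810) and Pcp4l1 (0.806), with 0.77, 0.79 and 0.70 within the samples with Ngn3. Adm2 lay nearest to Angptl6 (0.803), Aptx (0.773) and the stress factor Ddit3 (0.759). By rank correlation 1 of the 3 genes was kept for each of Ramp1, Ramp3 and Adm2.

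The spread between technical repeats of a sample differed between the genes that were called. Among samples with at least 20 counts and no repeat at 0, the highest repeat exceeded the lowest by a median of 1.45-fold for Ramp1 (at most 5.14-fold), 2.08-fold for Ramp3 (at most 18.0-fold) and 5.27-fold for Iapp (at most 137-fold). The largest values of Iapp were from samples without Ngn3, at 137-fold in 6SA Pdx1 replicate 1 and 83.5-fold in 6SA Pdx1-MafA replicate 2. In samples with Ngn3 the spread ran from 1.29-fold to 36.4-fold for Iapp and from 1.24-fold to 5.14-fold for Ramp1. The SE of Iapp over the 6 pairs was larger than that of Ramp1 (1.00 against 0.27).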

How the data were processed

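RNA-seq libraries of 50-cell pools were made after the Smart-seq2 method with Nextera XT. The authors aligned reads (GSNAP 2015-09-29, mm10, per the submitters' processing notes), counted them per Ensembl gene with HTSeq 0.5.3p3 and deposited raw counts, without normalization, for 46078 genes and 92 spike-ins. Whether counting used strand is not given in the sources used here, and reads without molecular identifiers are not independent molecules, so the limit of 3 counts covers counting error only. Libraries with under 25% of counts on spike-ins, over 1000000 gene counts and over 10000 genes were kept (58 of 61), and technical repeats were summed into 32 samples, which left 6SA Ngn3-Pdx1-MafA replicate 3 out. A gene was tested if 5 or more libraries had a count of it and the variance of its log2(CPM + 1) was over 0.001.

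The fit was edgeR 4.0.16 (R 4.3.3) with TMM scaling, quasi-likelihood tests over all 12 conditions and Benjamini-Hochberg adjustment over 24004 genes, checked on simulated data. The p-values measure the spread between replicate numbers of the labels. Alternatives were DESeq2 1.42.0, RLE size factors, other filters, edgeR's estimator without the legacy setting, all libraries, first technical repeats, the conditions compared alone and samples left out in turn. Leaving out replicate 1 or 2, leaving out 1 library of 6SA Pdx1 and plain totals were chosen after seeing the data.

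Replicate numbers were shared between conditions. Samples of equal number were set against their condition means, and over the 5000 genes with the highest levels these differences correlated above 0.1 in each pair for 5 of 6 comparisons of conditions with 3 shared numbers. The numbers were taken to pair the samples in WT Pdx1-MafA with and without Ngn3, in 6SA MafA with and without Ngn3 and where Pdx1 was added to Ngn3-MafA. For 6SA against WT Ngn3 these correlations were 0.44 to 0.76 in Ngn3-Pdx1 and 0.43 to 0.69 in Ngn3-MafA, but 0.23 and -0.13 in Ngn3-Pdx1-MafA. Values with and without the block are given for that comparison. The family and the gene lists were chosen with earlier results of these data known. Named genes were the 10 members, the factors, 6 hormones, up to 6 pathway genes per direction with the lowest p and the 3 to 5 genes nearest to a member, while Pam and the called genes of lists with few calls were named after their values were seen. Promoter windows were found for 8 of the 10 members. Positions are from a GRCm38 annotation.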

Additional observations from a re-analysis of the deposited data

Results flagged for a closer look

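Libraries with all 3 factors that were left out for low depth held signal above the highest library without Ngn3. On plain library totals, Iapp was at 730 CPM in the first technical repeat of WT Ngn3-Pdx1-MafA replicate 2, at 3821 CPM in the second repeat of 6SA Ngn3-Pdx1-MafA replicate 2 and at 2576 CPM in 6SA Ngn3-Pdx1-MafA replicate 3. Ramp1 was at 308, 377 and 272 CPM in the same 3 libraries. They held 625650, 241563 and 408733 counts on genes, and none of these libraries entered the comparisons above.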

How the results depend on the processing

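The rise of Iapp and Ramp1 over the 6 pairs kept its direction and an adjusted p under 0.05 in all 10 other settings and in all 35 fits that left out a sample or a replicate number, and so did the fall of Ramp3. Iapp ranged from 5.93 to 8.90 on the log2 scale over the fits that left out samples, Ramp1 from 2.40 to 2.85 and Ramp3 from -1.87 to -1.16. Over the other settings Ramp2 kept its call. Calcrl passed the threshold in 7 of the 10 (adjusted p from 0.016 to 0.048) and in 9 of the 35, while its log2 fold change fell to 0.43 without replicate 1.

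Counts of family genes called moved as follows. When Ngn3 joined Pdx1 in WT cultures, 0 became 2 with DESeq2, 2 with no gene filter, 2 with the compared conditions alone and 1 with the replicate block, and in 6SA cultures 0 became 1 with DESeq2, edgeR without the legacy setting, plain totals and the compared conditions alone, 2 with the replicate block and 3 with no gene filter. When Ngn3 joined MafA, 0 became 1 in WT cultures and 1 became 2 in 6SA cultures, both with no gene filter and with the compared conditions alone. When it joined Pdx1 and MafA, 2 became 4 in WT cultures with the replicate block and 5 in 6SA cultures with the compared conditions alone. For MafA added to Ngn3-Pdx1, 0 became 1 with DESeq2, without the legacy setting, with no gene filter, with the replicate block and with all libraries. With no gene filter, 1 family gene was called for the difference of the Ngn3 effect between cultures, 6 among the 12 conditions and 2 for its dependence on the partner, where DESeq2 called 1. The cause was not tested.

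Over the fits that left out samples, the family genes called ranged from 0 to 1 for Ngn3 with Pdx1 in WT and in 6SA cultures, from 0 to 2 with MafA in 6SA cultures, from 1 to 2 with Pdx1 and MafA in either culture, from 0 to 1 for MafA added, from 0 to 2 for Pdx1 added and from 1 to 3 among the 12 conditions. Directions turned for values that had not been called. Iapp with Ngn3 and MafA in WT cultures ranged from -1.45 to 7.42, Iapp in 6SA minus WT from -0.43 to 2.41 (-0.73 with first technical repeats and -0.022 with plain totals), its interaction from -3.0 to 2.89, Ramp1 in 6SA minus WT from -0.11 to 0.76, its interaction from -0.30 to 1.55, and Adm over the 6 pairs from -1.19 to 1.33 (-0.33 with the replicate block). Ramp3 among the 12 conditions was lost with RLE size factors (adjusted p = 0.056), plain totals (0.059) and without 1 library of 6SA Pdx1 (0.055).

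Counts over all genes ranged, over the other settings, from 26 to 451 for WT Pdx1, from 108 to 942 for WT MafA, from 1041 to 2481 for WT Pdx1-MafA, from 65 to 625 for 6SA Pdx1, from 356 to 1257 for 6SA MafA, from 1083 to 2901 for 6SA Pdx1-MafA, from 180 to 1454 for MafA added, from 321 to 2038 for Pdx1 added, from 0 to 239 for 6SA minus WT, from 0 to 101 for the interaction, from 1580 to 4446 among the 12 conditions and from 6 to 768 for the partner test. The count over the 6 pairs fell from 5168 to as few as 2085 when samples were left out. The replicate block called, over the 6 pairs, 5 family genes in place of 4, Calcrl being added. It also called Iapp in WT Pdx1 (log2 fold change 9.31, adjusted p = 0.033) and in 6SA Pdx1 (8.06, adjusted p = 0.033), pairs with 2 shared numbers each, where the deviations of equal numbers correlated at 0.52 to 0.72 and at 0.62 to 0.76. Where 6SA Pdx1-MafA was set against 6SA Ngn3-Pdx1-MafA, samples of equal number deviated in opposite directions (correlations of -0.42 and -0.36) and the block left 2 family genes called. Apart from the counts named here, the block changed no count of family genes. Depth limited Calca, Calcb, Ramp2, Calcr and Calcrl, which lay close to the 0.136 to 1.01 CPM that 3 counts stood for.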
